A study of Mus musculus with 12 samples.

Results

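The transcription factor gene Atf4 and 8 genes of the integrated stress response, Atf5, Ddit3, Ppp1r15a, Trib3, Sesn2, Asns, Slc3a2 and Chac1, were examined in ventricles of mice with human phospholamban. The genes were selected by symbol, with no measured value in the rule, but earlier results of these data were known. They were 9 of the 33641 genes listed. All 9 had a mean of at least 0.5 TPM (transcripts per 1000000 transcripts of a sample, corrected for gene length) and so were among the 12526 genes tested. Phospholamban is the small membrane protein that restrains the calcium pump of the sarcoplasmic reticulum, and R14del-PLN lacks its arginine 14. Messenger RNA was sequenced from the left ventricle (LV) and right ventricle (RV) of WT-PLN and R14del-PLN mice, with 3 samples in each of the 4 groups. In both genotypes the human coding sequence replaces the mouse one by knock-in. The WT-PLN mice carry human wild-type phospholamban, and the R14del-PLN mice, which the methods give as heterozygous, carry 1 intact and 1 R14del human allele. The labels give the strain as C57BL/6J and the age as 12 to 14 weeks, while the methods describe a hybrid line founded from 129/Sv-CP and C57Bl/6J chimeric males crossed to Sox2-Cre mice. The mutant samples are titled as knock-outs in the labels, but their genotype entry is R14del-PLN, and no treatment was given. The labels do not say that samples are separate animals, so p-values measure the spread between these samples. Whole ventricle was used, so a difference in RNA per cell and a difference in the number of cells of a type cannot be told apart.

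The integrated stress response is a pathway by which cells cut protein synthesis when they are stressed. Kinases that sense unfolded protein, amino acid shortage, haem shortage or double-stranded RNA phosphorylate the translation factor eIF2, and this raises translation of the ATF4 messenger RNA while most other translation is reduced. ATF4 then induces genes for amino acid supply, redox balance and feedback control, and in the heart the pathway is known from ischemia, mitochondrial disease and protein misfolding. Since ATF4 is controlled largely at translation, the values here describe messenger RNA and not ATF4 protein, eIF2 phosphorylation or activity of the pathway.

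Several libraries stood apart. Both WT-PLN samples numbered 1 had a summed level of 0.25 and 0.284 TPM over 4 Y-linked genes, against 43.5 to 63.7 TPM in the other 10 samples, although the methods state that males were used. The summed level of 10 early response genes such as Fos and Egr1, which many stimuli induce within minutes, was 75.5 TPM in the LV and 60.9 TPM in the RV of WT-PLN number 1. It was 182 and 446 TPM in the other LV samples and 140.2 and 337 TPM in the other RV samples of WT-PLN hearts, and 41.9 to 68.0 TPM in all R14del-PLN samples. Mitochondrially encoded transcripts took 37.3% to 54.5% of all TPM, and the lowest share was in LV sample 3 of R14del-PLN hearts. RV sample 3 of R14del-PLN hearts carries the label of another sequencing run than the other 11. Some results are therefore also given without both WT-PLN samples numbered 1, among them each of the 9 genes whose call this changed. The markers of cardiomyocytes were high in every sample, with a summed level of 28454 to 43159 TPM over 7 genes.

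Levels of the 9 genes spanned more than an order of magnitude. Atf4 was highest, with a mean of 33.8 TPM over the 12 samples, above 87.3% of the genes tested. Atf5, Slc3a2 and Ddit3 followed at 17.0, 16.2 and 15.5 TPM, and their sample ranges overlapped. Ppp1r15a was at 10.2 TPM, while Chac1, Asns, Trib3 and Sesn2 lay at 2.29, 1.37, 1.10 and 0.911 TPM, which places them above 25.5%, 15.4%, 11.6% and 8.61% of the genes tested. The ranges of neighbours in this order overlapped throughout, except that Ppp1r15a lay above Chac1, from 5.93 to 16.9 TPM against 0.764 to 5.41 TPM.

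**Figure D1:**
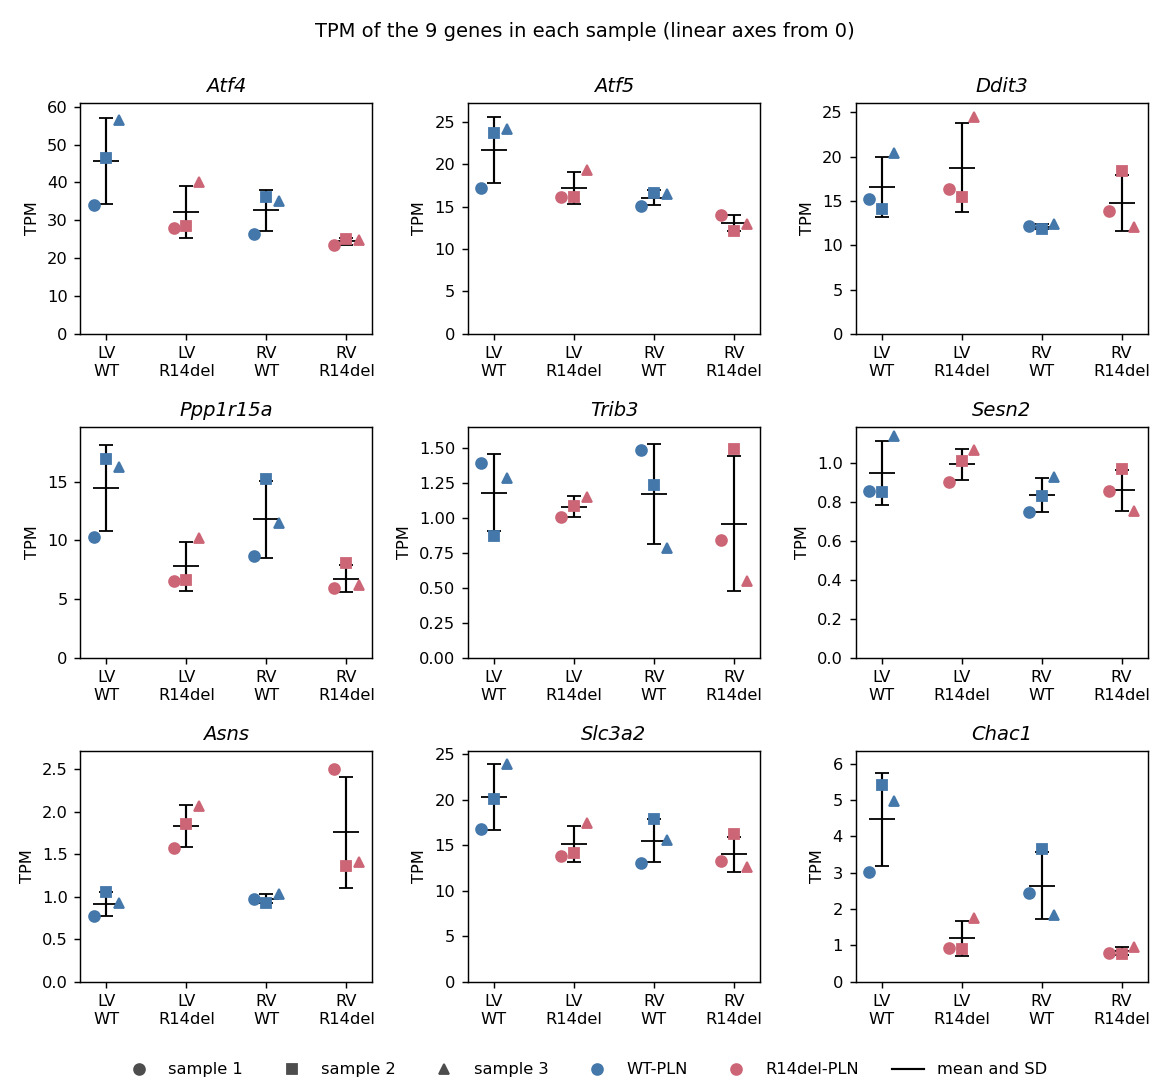
TPM of each of the 9 genes (linear axes from 0) in the 3 samples of each ventricle and genotype, with the mean and SD of each group in black and the sample number as the symbol. The 3 R14del-PLN samples lie below the 3 WT-PLN samples for Chac1 and Ppp1r15a in both ventricles, and above them for Asns.

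The RefSeq promoter table of GRCm38.p6, which covers 250 bases before to 50 after each gene start, was searched on both strands for letters that ATF4 and its partners are known to recognise. It held 9 of the 9 genes. The C/EBP-ATF composite element TGATGNAA was in 3.97% of 32851 promoters and in those of Trib3, Asns and Chac1. The variant TGACGNAA was in 1.59% of promoters and in that of Chac1. The cyclic AMP response element TGACGTCA, which several bZIP dimers bind, was in 1.79% of promoters and in that of Ppp1r15a. The windows that carry these letters in Asns, Chac1 and Ppp1r15a, the 3 genes whose genotypes did not overlap in either ventricle, are shown 5′ to 3′ on the strand of the gene, with the matched letters in capitals.
Asns, minus strand, chr6:7693214-7693243, match from 23 bases before the start: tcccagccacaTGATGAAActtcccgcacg
Chac1, plus strand, chr2:119351038-119351067, match on the reverse strand from 193 bases before the start: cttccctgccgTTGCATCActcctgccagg
Chac1, plus strand, chr2:119350992-119351021, match from 250 bases before the start: TGACGCAAtctgactcgcccttgctgcatg
Ppp1r15a, minus strand, chr7:45526269-45526298, match from 12 bases before the start: gagaccccgcctctccggTGACGTCAgcac
In Trib3 the match began 14 bases after the start. Starts here are those of RefSeq, while the gene positions given below are from the GENCODE annotation, whose starts differ for some genes. By the GENCODE positions, the Asns window lies inside the gene, after its start, and the Trib3 match lies before the start of that gene. A match describes the letters only, and the letters searched were not in the windows of the other 5 genes. Asns and Chac1 share the composite element letters, while their values in R14del-PLN hearts lay on opposite sides of those in WT-PLN hearts.

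Genotypes were compared by limma on log2(TPM + 1), which fits all 12 samples in 1 model and understates changes of genes with low TPM. A gene was called when its Benjamini-Hochberg adjusted p over the 12526 genes was at most 0.05 and its fold change at least 1.5. In the LV, 1 of the 9 genes was called, Chac1, which was lower in R14del-PLN hearts. By this rule 0.519% of all genes tested were called in the LV, and 0.423% were called lower. In the RV, 0 of the 9 genes were called, against 0.271% of all genes and 0.2% called lower. The number of calls over all genes depended on single samples. It was 65 in the LV and 34 in the RV, and without both WT-PLN samples numbered 1 it was 231 and 88. With 1 sample left out it lay between 19 (without LV sample 1 of R14del-PLN hearts) and 153 (without LV sample 1 of WT-PLN hearts) in the LV. In the RV it lay between 14 (without RV sample 2 of WT-PLN hearts) and 48 (without LV sample 1 of WT-PLN hearts). At an unadjusted p under 0.05, 5 genes were lower and 1 was higher in the LV, where 9.6% of all genes passed, and 2 were lower and 1 was higher in the RV, where 6.22% passed. The log2 fold change was below 0 for 6 of the 9 genes in each ventricle, and for 71.7% of all genes in the LV and 50.9% in the RV. The median log2 fold change of the 9 genes was -0.31 in the LV and -0.16 in the RV, against -0.087 and -0.0034 over all genes tested. Quantile normalization moved the LV median of all genes to 0.014, so small differences in the LV depend on the scaling. The TPM values of the genotypes were fully separate for 2 genes lower and 1 higher in the LV, where this held for 8.47% and 2.48% of all genes, and for 4 genes lower and 1 higher in the RV, against 5.79% and 5.19%.

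**Figure D2:**
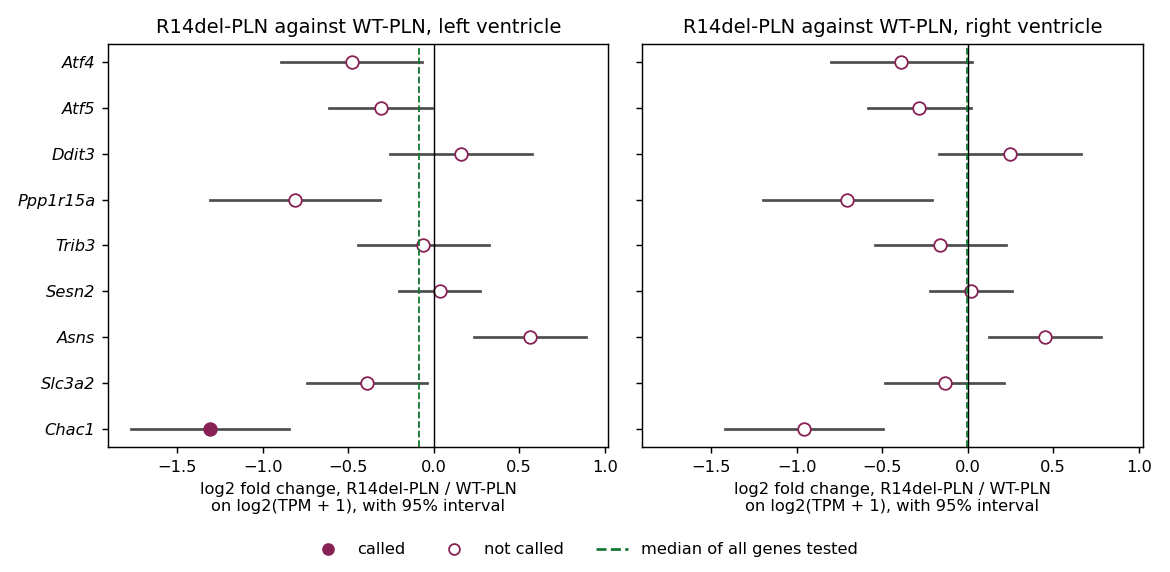
Log2 fold change of R14del-PLN against WT-PLN hearts for the 9 genes in the LV (left) and the RV (right), on log2(TPM + 1), with 95% intervals from limma. The filled point is the single call, Chac1 in the LV at -1.31, and the dashed line is the median of all genes tested, -0.087 in the LV and -0.0034 in the RV.

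Atf4, the central transcription factor of the pathway, lies at chr15:80255184-80257541 on the plus strand (GRCm38). LV samples of WT-PLN hearts held 34.0, 46.6 and 56.6 TPM, and those of R14del-PLN hearts 28.1, 28.5 and 40.1 TPM. RV samples held 26.4, 36.3 and 35.2 TPM (WT-PLN) and 23.5, 25.2 and 24.8 TPM (R14del-PLN). The LV ranges overlapped through sample 3 of R14del-PLN hearts, whereas all RV samples of R14del-PLN hearts lay below those of WT-PLN hearts. The log2 fold change was -0.48 in the LV (SE 0.19, limma adjusted p = 0.420) and -0.39 in the RV (SE 0.19, limma adjusted p = 0.843), and neither passed the test. The lowest WT-PLN value in each ventricle was that of sample 1. Without both samples numbered 1, the log2 fold change was -0.67 in the LV (limma adjusted p = 0.0799) and -0.53 in the RV (limma adjusted p = 0.364).

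Atf5, a related bZIP factor that is also translated under eIF2 phosphorylation and that governs mitochondrial protein quality, lies at chr7:44812256-44816658 on the minus strand. Its LV values were 17.2, 23.8 and 24.2 TPM (WT-PLN) and 16.1, 16.1 and 19.4 TPM (R14del-PLN). Its RV values were 15.1, 16.6 and 16.6 TPM (WT-PLN) and 14.0, 12.2 and 12.9 TPM (R14del-PLN). As for Atf4, the genotypes overlapped in the LV and not in the RV. The log2 fold change of -0.31 in the LV (SE 0.14, limma adjusted p = 0.501) and -0.28 in the RV (SE 0.14, limma adjusted p = 0.846) did not pass the test. Exons of Atf5 overlap those of Nup62, with a mean of 6.33 TPM, and of Il4i1, at 0.154 TPM, on the opposite strand. Whether reads were counted by strand is not stated, so the Atf5 values are uncertain to that extent.

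Ddit3 encodes CHOP, the factor that acts with and downstream of ATF4 in prolonged stress and is linked to cell death. It lies at chr10:127290774-127296288 on the plus strand, and its exons overlap those of Mars, at a mean of 12.8 TPM, on the opposite strand. The annotation holds a second entry for Ddit3 at chr10:127290829-127293753, while the tables hold 1 row. The LV values of Ddit3 were 15.2, 14.1 and 20.4 TPM (WT-PLN) and 16.4, 15.4 and 24.5 TPM (R14del-PLN). The RV values of Ddit3 were 12.2, 11.8 and 12.4 TPM (WT-PLN) and 13.9, 18.3 and 12.1 TPM (R14del-PLN). The genotypes overlapped in both ventricles, and the log2 fold changes of 0.16 in the LV (SE 0.19, limma adjusted p = 0.865) and 0.25 in the RV (SE 0.19, limma adjusted p = 1.0) did not pass the test. The 95% interval of the difference was -0.26 to 0.57 in the LV and -0.17 to 0.66 in the RV.

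Among the feedback regulators, Ppp1r15a encodes GADD34, the subunit that directs protein phosphatase 1 to dephosphorylate eIF2 and so ends the response. It lies at chr7:45522916-45526268 on the minus strand. Ppp1r15a was measured in the LV at 10.3, 16.9 and 16.3 TPM (WT-PLN) and 6.56, 6.61 and 10.2 TPM (R14del-PLN). Its level in the RV was 8.67, 15.2 and 11.5 TPM (WT-PLN) and 5.93, 8.04 and 6.20 TPM (R14del-PLN). Every R14del-PLN sample lay below every WT-PLN sample of its ventricle, but in the LV sample 1 of WT-PLN and sample 3 of R14del-PLN hearts were close, at 10.3 and 10.2 TPM. The log2 fold change was -0.81 in the LV (SE 0.23, limma adjusted p = 0.210) and -0.70 in the RV (SE 0.23, limma adjusted p = 0.459), and Ppp1r15a was not called. Without both WT-PLN samples numbered 1 it was called in the LV, with a log2 fold change of -1.03 (limma adjusted p = 0.0280), and in the RV it was at -0.89 (limma adjusted p = 0.0952). Its exons overlap those of Tulp2, at 0.0803 TPM, on the opposite strand.

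Trib3, a pseudokinase that binds ATF4 and CHOP and limits their activity, and Sesn2, a leucine sensor that restrains mTORC1 and is induced by ATF4, were both near 1 TPM. Trib3 (chr2:152337422-152344032, minus strand) ranged in the LV from 0.868 to 1.39 TPM (WT-PLN) and 1.00 to 1.15 TPM (R14del-PLN), and in the RV from 0.782 to 1.48 TPM and 0.546 to 1.49 TPM. Sesn2 (chr4:132492032-132510501, minus strand) ranged in the LV from 0.854 to 1.14 TPM (WT-PLN) and 0.907 to 1.07 TPM (R14del-PLN), and in the RV from 0.751 to 0.929 TPM and 0.755 to 0.969 TPM. The genotypes overlapped for both genes in both ventricles. The log2 fold change of Trib3 was -0.060 in the LV (95% interval -0.44 to 0.32) and -0.16 in the RV (-0.54 to 0.22), and that of Sesn2 was 0.035 in the LV (-0.20 to 0.27) and 0.018 in the RV (-0.22 to 0.26).

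The remaining genes serve amino acid supply and glutathione turnover, and their R14del-PLN values lay on different sides of the WT-PLN values. Asns encodes asparagine synthetase, a standard target of ATF4 under amino acid shortage with the composite element letters shown above, and lies at chr6:7675169-7693254 on the minus strand. LV samples had 0.771, 1.05 and 0.926 TPM (WT-PLN) and 1.57, 1.86 and 2.07 TPM (R14del-PLN). RV samples had 0.975, 0.928 and 1.03 TPM (WT-PLN) and 2.51, 1.36 and 1.40 TPM (R14del-PLN). Every R14del-PLN sample was above every WT-PLN sample of its ventricle, which is the opposite order to that of Ppp1r15a and Chac1. The mean TPM in R14del-PLN hearts was 2.00 times that in WT-PLN hearts in the LV and 1.79 times in the RV. On the log2(TPM + 1) scale the difference was 0.56 in the LV (SE 0.15, limma unadjusted p = 0.00260, adjusted p = 0.175) and 0.45 in the RV (SE 0.15, limma unadjusted p = 0.0103, adjusted p = 0.489), so Asns was not called. After quantile normalization it was called in the LV, at 0.62 (limma adjusted p = 0.0499). RV sample 1 of R14del-PLN hearts held the highest value, and without it the RV log2 fold change was 0.27 (limma adjusted p = 0.703).

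Slc3a2 encodes the heavy chain CD98, which carries large neutral amino acid and cystine transporters to the cell surface, and lies at chr19:8706882-8723369 on the minus strand. Slc3a2 stood in the LV at 16.7, 20.1 and 24.0 TPM (WT-PLN) and 13.9, 14.2 and 17.5 TPM (R14del-PLN). Its RV samples had 13.1, 17.9 and 15.6 TPM (WT-PLN) and 13.2, 16.2 and 12.6 TPM (R14del-PLN). The genotypes overlapped in both ventricles, and the log2 fold changes of -0.39 in the LV (SE 0.16, limma adjusted p = 0.450) and -0.13 in the RV (SE 0.16, limma adjusted p = 1.0) did not pass the test. Without both WT-PLN samples numbered 1 the RV value was -0.24.

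Chac1 encodes a gamma-glutamylcyclotransferase that degrades glutathione and is induced through ATF4, ATF3 and CHOP. It lies at chr2:119351229-119354381 on the plus strand. The study's own text names it among genes downregulated in both the LV and the RV of these libraries, so its direction is not independent evidence. The study used another program at the same adjusted p and fold limits, whereas here Chac1 was not called in the RV by the main fit. Its LV level was 3.01, 5.41 and 4.98 TPM (WT-PLN) and 0.931, 0.910 and 1.75 TPM (R14del-PLN). Its RV level was 2.43, 3.66 and 1.85 TPM (WT-PLN) and 0.788, 0.764 and 0.961 TPM (R14del-PLN). Every R14del-PLN sample lay below every WT-PLN sample of either ventricle. The mean TPM in R14del-PLN hearts was 0.268 times that in WT-PLN hearts in the LV and 0.317 times in the RV. Chac1 fell by 1.31 on the log2(TPM + 1) scale in the LV (SE 0.21, limma adjusted p = 0.0170). In the RV the log2 fold change was -0.96 (SE 0.21, limma unadjusted p = 0.000622, adjusted p = 0.104), which did not pass after adjustment. The LV call was lost when single samples were left out, with a limma adjusted p of 0.0935 without WT-PLN sample 2, 0.0844 without WT-PLN sample 3, 0.111 without R14del-PLN sample 1 and 0.0853 without R14del-PLN sample 2. The LV log2 fold change ran from -1.52 to -1.18 over all 12 fits that left out 1 sample. With no filter on low genes the LV call was also lost (limma adjusted p = 0.0936), and after quantile normalization Chac1 was called in the RV, at -0.99 (limma adjusted p = 0.0493). Without both WT-PLN samples numbered 1, it was -1.52 in the LV (limma adjusted p = 0.00376) and -0.99 in the RV (limma adjusted p = 0.0792). No near-identical copy of any of the 9 genes was found, at 95% identity over 80% of the shorter transcript (0 copies each).

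With 3 samples against 3, an exact permutation test of the difference in mean TPM cannot go below p = 0.1 (two-sided). Chac1, Ppp1r15a and Asns reached this smallest exact p of 0.1 in both ventricles, and Atf4 and Atf5 did in the RV. It is reached when the samples of the genotypes are fully separate, so it restates that separation and is not a second result. Of all genes tested, 8.47% were lower and 2.48% higher without overlap in the LV, and 5.79% and 5.19% in the RV.

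Each gene was also expressed as its ratio to Atf4 within a sample, which cancels any scaling of the whole sample. These ratios were chosen after the values were seen and are given without a test. The mean of Atf4 itself in R14del-PLN hearts was 0.705 times that of WT-PLN hearts in the LV and 0.75 times in the RV, so the ratio of a gene with equal TPM in both genotypes is higher in R14del-PLN hearts. Of the other genes tested, the ratio to Atf4 was higher without overlap for 43.4% in the LV and 42.4% in the RV, and lower without overlap for 1.33% and 0.838%, so a higher ratio was common among all genes. In the LV, Chac1 was at 0.088 to 0.116 times Atf4 in WT-PLN hearts and at 0.0319 to 0.0437 times in R14del-PLN hearts, and in the RV at 0.0524 to 0.101 and 0.0304 to 0.0387 times. Ppp1r15a was likewise lower relative to Atf4, at 0.288 to 0.363 against 0.232 to 0.254 in the LV and 0.326 to 0.42 against 0.25 to 0.32 in the RV. Asns was higher relative to Atf4 in R14del-PLN hearts, at 0.0515 to 0.0651 against 0.0164 to 0.0227 in the LV and 0.054 to 0.107 against 0.0256 to 0.0369 in the RV. Ddit3, whose TPM ranges overlapped, had ratios that did not, at 0.303 to 0.447 (WT-PLN) against 0.54 to 0.611 (R14del-PLN) in the LV and 0.325 to 0.461 against 0.488 to 0.729 in the RV. Sesn2 relative to Atf4 was also higher in R14del-PLN hearts without overlap in both ventricles, and Slc3a2 in the RV alone, at 0.442 to 0.495 against 0.509 to 0.644. Ratios of Atf5 and Trib3 to Atf4 overlapped in both ventricles.

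**Figure D3:**
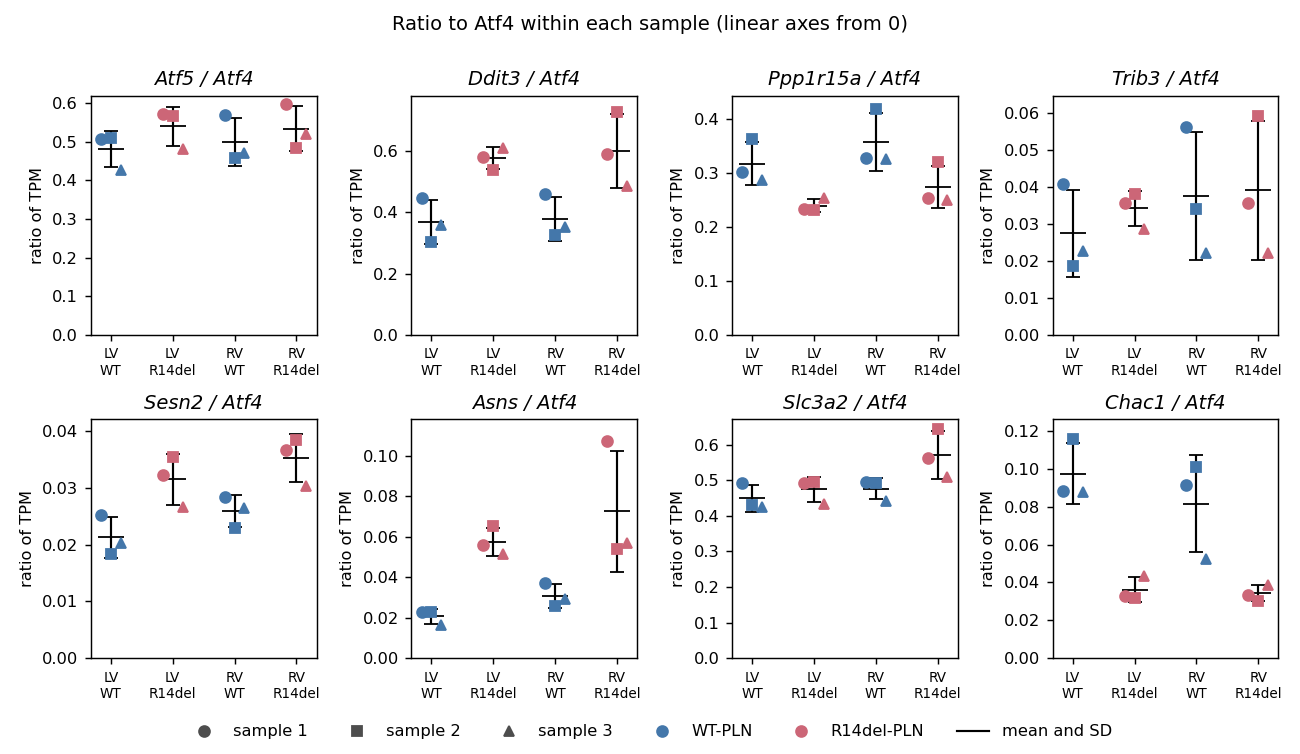
Ratio of the TPM of each gene to that of Atf4 in the same sample (linear axes from 0), by ventricle and genotype, with the mean and SD of each group of 3 samples in black. The ratios of Chac1 and Ppp1r15a are lower and those of Asns, Ddit3 and Sesn2 higher in all R14del-PLN samples than in the WT-PLN samples of the same ventricle.

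Between the ventricles, 0 of the 9 genes were called in either genotype. By limma 0% of all genes were called in WT-PLN hearts and 0% in R14del-PLN hearts, and 14.5% and 6.57% passed at an unadjusted p under 0.05. In WT-PLN hearts 4 of the 9 genes, Atf4, Atf5, Slc3a2 and Chac1, were lower in the RV at an unadjusted p under 0.05, and in R14del-PLN hearts only Atf5 was. The log2 differences of RV from LV in WT-PLN hearts were -0.46 for Atf4, -0.40 for Atf5, -0.36 for Slc3a2 and -0.59 for Chac1, where the median of all genes was -0.17. After quantile normalization, which moved that median to 0.0051, they were -0.28, -0.21, -0.18 and -0.41 and remained below 0. The RV values of Atf5 and Ddit3 lay below those of the LV without overlap in WT-PLN hearts, where this held for 25.2% of all genes. In R14del-PLN hearts it held for Atf4 and Atf5 and for 8.72% of all genes, with log2 differences of -0.37 (limma adjusted p = 0.809) and -0.37 (limma adjusted p = 0.737), against a median of -0.076 over all genes.

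The interaction of genotype and ventricle, which asks whether the difference between genotypes was unlike in the RV and LV, was called for 0 of the 9 genes by limma and for 0% of all genes. At an unadjusted p under 0.05 it passed for 0 of the 9 genes and for 1.01% of all genes. For Chac1 it was 0.35 on the log2 scale (95% interval -0.31 to 1.00) and 0.53 without both WT-PLN samples numbered 1, and for Atf4 it was 0.092 (-0.49 to 0.67). The call of Chac1 in the LV and not in the RV thus does not show a difference between the ventricles.

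Other genes of the pathway were taken from 7 lists holding 73 genes, of which 66 had a mean of at least 0.5 TPM. Those below it were Batf3, Pycr1, Cbs, Slc7a11, Slc7a3, Slc1a4 and Fgf21, which encodes a stress hormone induced by ATF4 in mitochondrial disease. In the LV 4 of the 66 genes were called, all lower in R14del-PLN hearts, against 0.519% of all genes called and 0.423% called lower. In the RV 2 of the 66 were called, both lower, against 0.271% of all genes called and 0.2% called lower. At an unadjusted p under 0.05 there were 16 lower and 0 higher in the LV, and 8 lower and 1 higher in the RV. Over all genes tested, 7.85% were lower and 1.76% higher at that p in the LV, and 3.4% lower and 2.82% higher in the RV. The median log2 fold change over the 66 genes was -0.18 in the LV and -0.049 in the RV, against -0.087 and -0.0034 over all genes. These 7 lists were chosen with earlier results of these data known, so their counts and medians are not independent evidence.

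The called genes were bZIP partners and further targets. Cebpb, a C/EBP factor that pairs with ATF4, had LV means of 19.0 ± 4.43 TPM (WT-PLN) and 6.45 ± 0.565 TPM (R14del-PLN) and RV means of 13.8 ± 2.78 and 4.99 ± 1.45 TPM (SD, n = 3 each). It fell by 1.40 on the log2 scale in the LV (limma adjusted p = 0.0109) and fell by 1.32 in the RV (limma adjusted p = 0.0168). Cebpd, another C/EBP factor, fell by 1.05 in the LV (limma adjusted p = 0.0154) and had a log2 fold change of -0.81 in the RV (limma adjusted p = 0.0772). Ddit4, which encodes the mTORC1 inhibitor REDD1, had LV means of 43.0 ± 10.3 TPM (WT-PLN) and 14.3 ± 5.57 TPM (R14del-PLN) and RV means of 32.1 ± 4.19 and 11.6 ± 3.34 TPM (SD, n = 3 each). It fell by 1.56 in the LV (limma adjusted p = 0.0170) and fell by 1.42 in the RV (limma adjusted p = 0.0372). Herpud1, a component of the degradation machinery of the endoplasmic reticulum, fell by 0.88 in the LV (limma adjusted p = 0.0191) and had a log2 fold change of -0.66 in the RV (limma adjusted p = 0.111). For these 4 genes the samples of the genotypes were fully separate in both ventricles. They were named because they were called in these same samples, so the separation is not added evidence. Of all genes tested, 8.47% were lower without overlap in the LV and 5.79% in the RV. The LV calls of all 4 genes were lost without WT-PLN sample 2, WT-PLN sample 3, R14del-PLN sample 1 or R14del-PLN sample 2, where the limma adjusted p lay between 0.0549 and 0.117. The RV call of Cebpb was lost without RV sample 2 of WT-PLN (0.118), RV sample 3 of WT-PLN (0.0954) or RV sample 2 of R14del-PLN hearts (0.0514). That of Ddit4 was lost without RV sample 1, 2 or 3 of WT-PLN (0.0552, 0.221 and 0.131), RV sample 1 or 2 of R14del-PLN (0.138 and 0.108), LV sample 3 of WT-PLN (0.0567) or LV sample 2 of R14del-PLN hearts (0.0606). With no filter on low genes 0 of the 66 genes were called in either ventricle, and with upper quartile scaling Cebpd and Herpud1 were also called in the RV (limma adjusted p = 0.0391 and 0.00549).

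By list, the bZIP partners had a median of -0.75 in the LV, the lowest of the 7 lists there, and of -0.26 in the RV, with 6 of 7 genes below 0 in each ventricle. The amino acid transporters had 5 of 5 genes below 0 in each ventricle, where 71.7% of all genes were below 0 in the LV and 50.9% in the RV, and 0 calls, with medians of -0.43 and -0.27, and the most abundant, Slc38a2, which carries small neutral amino acids, had a log2 fold change of -0.51 in the LV (limma adjusted p = 0.138) and -0.46 in the RV (limma adjusted p = 0.288). The other ATF4 and CHOP targets had medians of -0.26 and -0.18 over 13 genes, and Sqstm1, an autophagy receptor and the most abundant of them, was at -0.35 and -0.24 (limma adjusted p = 0.630 and 1.0), and at -0.54 and -0.39 without both WT-PLN samples numbered 1. The 4 eIF2 kinases had 0 calls and medians of -0.040 and 0.042, and Eif2ak1, the haem-regulated kinase, was at -0.013 and 0.065. The 14 genes of eIF2, eIF2B and eIF2 dephosphorylation had 0 calls and medians of -0.14 and -0.034, and Ppp1cb, a catalytic subunit that works with GADD34, was at -0.38 and -0.28 (limma adjusted p = 0.223 and 0.671). The 12 cytosolic aminoacyl-tRNA synthetases, many of which ATF4 induces, had 0 calls and medians of -0.055 and -0.0014, and Sars was at -0.059 and 0.090. The 11 tested genes of serine, glycine, one-carbon, proline and cysteine synthesis had 0 calls and medians of -0.17 and -0.017, and Got1 was at -0.23 in each ventricle (limma adjusted p = 0.612 and 0.938). Nfe2l1, the most abundant bZIP partner, was at 0.11 and 0.090.

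**Figure D4:**
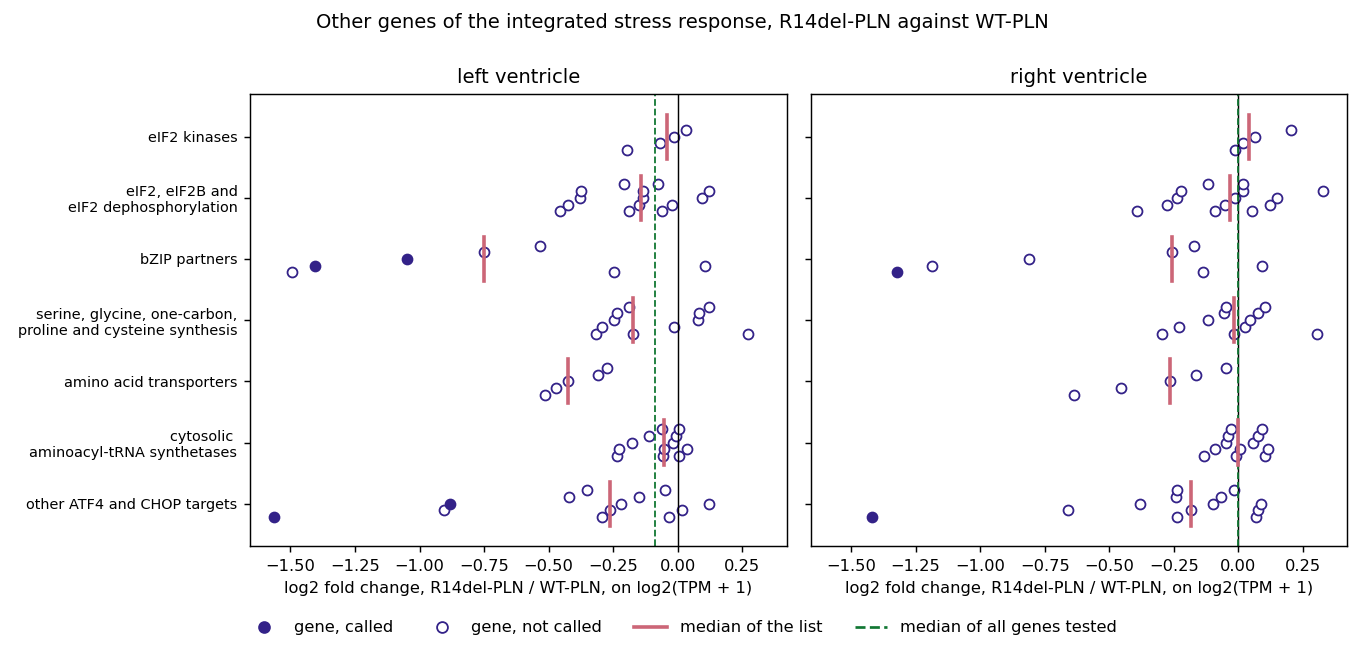
Log2 fold change of R14del-PLN against WT-PLN hearts for each of the 66 other tested genes of the pathway, by list, in the LV (left) and the RV (right). Filled points are called genes, 4 in the LV and 2 in the RV, the short bar is the median of a list and the dashed line that of all genes tested.

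Early response and hormone-responsive genes also differed in level between the genotypes in these libraries. The summed levels of the 10 early response genes, given above, did not overlap between the genotypes within a ventricle. Neither did those of 6 glucocorticoid-induced genes, such as Tsc22d3 and Per1, which spanned 166 to 236 TPM (WT-PLN) and 74.9 to 106 TPM (R14del-PLN) in the LV, and 169 to 202 TPM and 80.2 to 89.7 TPM in the RV. Single genes of these lists did overlap. In the LV, sample 1 of WT-PLN hearts held 1.54 TPM of Egr1 and 13.7 TPM of Sgk1. The R14del-PLN samples there held 1.48 to 3.05 TPM of Egr1 and 10.1 to 14.7 TPM of Sgk1. The lists were chosen with earlier results of these data known, so the separation of their sums is not independent evidence. No gene of either list was at 0 in all samples of a group. Within WT-PLN hearts, the samples numbered 1 had the lowest early response levels and also the lowest Atf4, Atf5, Ppp1r15a and Slc3a2 of their ventricle, whereas the lowest Chac1 in the RV was in sample 3. The part of either list in the lower Chac1, Ppp1r15a, Cebpb, Cebpd, Ddit4 and Herpud1 of R14del-PLN hearts was not tested. Summed levels of cardiomyocyte, fibroblast, endothelial, smooth muscle and macrophage markers overlapped between the genotypes in both ventricles. The summed level of 6 atrial markers also overlapped, but single libraries stood far from the others, at 1299 TPM in LV sample 3 of WT-PLN hearts against 209.6 and 317 TPM in the other LV samples of that genotype, and at 874 TPM in RV sample 2 of WT-PLN hearts against 102 and 89.3 TPM. Smooth muscle markers were at 396 TPM in the same LV sample 3, against 175 and 201 TPM. That LV sample held the highest WT-PLN values of Atf4, Atf5 and Slc3a2 in the LV, and that RV sample those of Atf4, Ppp1r15a, Slc3a2 and Chac1 in the RV. Among R14del-PLN hearts the atrial sum also stood apart in RV sample 2, at 524 TPM against 199 and 48.1 TPM in the other RV samples. Without LV sample 3 of WT-PLN hearts the LV log2 fold change was -0.31 for Atf4 and -1.23 for Chac1, and without RV sample 2 of WT-PLN hearts the RV log2 fold change was -0.31 for Atf4, -0.52 for Ppp1r15a and -0.77 for Chac1, and the part of these markers in the results was not tested. Red cell markers overlapped in the LV but not in the RV, at 1461 to 1736 TPM (WT-PLN) and 956 to 1368 TPM (R14del-PLN), and their part in the RV results was not tested.

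The genes whose log2(TPM + 1) followed that of Atf4 most closely over the 12 samples were Adamts1, Agfg1 and Pcbp1, with a Pearson r of 0.98, 0.97 and 0.97. These values describe 12 samples that share groups and scaling, and they carry no p. Among the other 8 genes, Atf5 and Slc3a2 had the highest r with Atf4, at 0.94 and 0.93, followed by Ppp1r15a at 0.89 and Chac1 at 0.84. Sesn2 was at 0.54, Ddit3 at 0.39, Trib3 at 0.14 and Asns at -0.45. By r with Atf4 among the 12525 other genes tested, Atf5 ranked 40, Slc3a2 79, Ppp1r15a 323 and Chac1 853. Sesn2 ranked 6341, so an r near 0.54 with Atf4 was common among all genes. Ddit3 was followed most closely by Opa3, Zfp651 and Trappc3, at 0.97, 0.97 and 0.96, and of the other genes by Sesn2, at 0.83. Chac1 was followed most closely by Cdkn1a, Sorbs3 and S1pr1, at 0.98, 0.97 and 0.97, and of the other genes by Ppp1r15a at 0.93, and it had an r of -0.71 with Asns. Cdkn1a, which encodes the cell cycle inhibitor p21, is also 1 of the 6 glucocorticoid-induced genes above. Once the group means were taken out, the r of Asns was 0.20 with both Atf4 and Chac1. With Atf4, the r was then 0.60 for Ddit3, 0.68 for Sesn2 and -0.18 for Trib3. It was 0.89 for Slc3a2 and Ppp1r15a, 0.85 for Atf5 and 0.70 for Chac1.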

How the data were processed

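RNA was extracted with Trizol from flash-frozen hearts and, per the methods, sequenced from polyA stranded libraries. The authors mapped reads to GRCm38 with CLC Genomics Workbench and deposited TPM values per gene and sample. The program and annotation behind the TPM values, and any counting by strand, are not given in the sources used here. Values of each sample sum to 1000000, so depth and counting error are unknown.

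Genes with mean TPM of 0.5 or more (12526) were fitted with limma 3.58.1 (R 4.3.3, intensity trend, 8 residual degrees of freedom) on log2(TPM + 1), with 4 group means and no block, and p-values were adjusted by Benjamini-Hochberg. The fit was tested on simulated data with independent normal noise. That test did not cover changes in genes as low as Chac1, Asns, Trib3 and Sesn2, or libraries that stand apart. Positions are from GENCODE M21, promoters from RefSeq, and copies were sought with BLAST 2.17.0. Python 3.11.15 was used elsewhere.

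LV and RV samples of 1 number deviated from their group means together in WT-PLN hearts (correlations 0.32 to 0.66). No label says that a number stands for 1 mouse, and what samples of 1 number share was not tested. In R14del-PLN hearts same numbers correlated at 0.054 to 0.39 (mean 0.22), against -0.40 to 0.16 (mean -0.11) for unlike numbers. Deviations within a group sum to 0, which pushes unlike numbers below 0 on average where same numbers are above it. The values of unlike numbers are therefore not separate evidence. Between genotypes same numbers were at -0.021 to 0.22, with means of 0.076 against -0.038 in the LV and 0.14 against -0.07 in the RV. The ranges overlapped in these comparisons, so the values do not settle whether the numbers pair those samples.

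By rule, the text names the 9 genes, the called genes and the most abundant gene of each pathway list, and the 3 genes most like Atf4, Ddit3 and Chac1. Pathway genes below the filter and genes overlapping on the other strand are named outside it. The members, lists and tests were chosen with earlier results of these data known. Alternatives were other pseudocounts, filters and scalings, removal of mitochondrially encoded genes, no trend, 6 samples alone, blocks of the number and of the number within genotype, no fold threshold, and samples left out.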

Additional observations from a re-analysis of the deposited data

How the results depend on the processing

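TPM keeps no depth, so counting error behind genes near 1 TPM (Asns, Trib3, Sesn2) is unknown, and 3 samples a group limit every call. Of the 9 genes, 1 was called in LV and 0 in RV. With no filter there were 0 in LV, with quantile normalization 2 in LV and 1 in RV (Chac1 and, in LV, Asns), without both WT-PLN samples numbered 1 there were 2 in LV, and with single samples left out 0 to 1 in LV. Over all genes, calls went from 65 (0.519%) in LV and 34 (0.271%) in RV to 22 (0.0959%) and 17 (0.0741%) with no filter, 104 (0.83%) and 85 (0.679%) after quantile normalization, 99 and 87 after upper quartile scaling, 95 and 73 without mitochondrially encoded genes, and 231 (1.84%) and 88 (0.703%) without both samples numbered 1, and with single samples left out to 19 to 153 in LV and 14 to 48 in RV. Of the other pathway genes, 4 were called in LV and 2 in RV. With no filter there were 0 in LV and 0 in RV, with upper quartile scaling 4 in RV, with the 6 RV samples alone 1 in RV, and with single samples left out 0 to 6 in LV and 0 to 2 in RV. With the number as replicate block, 1 of the 9 genes was called in LV and 0 in RV, and 5 and 3 of the other pathway genes; Cebpd then passed in RV (limma adjusted p = 0.0407), and over all genes 119 were called in LV and 62 in RV in place of 65 and 34. With the number within each genotype as block (which would stand for the mouse, although no label gives it), 12 of all genes and 0 of the 9 were called between the ventricles of WT-PLN hearts, and it changed no other count of the 9 genes. Over 67 log2 fold changes and 1554 alternative values, 1439 kept direction and side of the threshold, 38 lost it, 8 gained it and 69, in 23 of the fold changes, changed sign. Many of these directions could not change. Another filter, no trend, or leaving out a sample of a group not compared keeps the log2 fold change as it was. The count of kept values is therefore no measure of robustness. For R14del-PLN against WT-PLN in LV, Trib3 was 0.0082 after quantile normalization, 0.0019 after upper quartile scaling and 0.0098 without both samples numbered 1, Eif2ak1 was 0.093, 0.092 and, without mitochondrially encoded genes, 0.00090, Sars was 0.057 after either scaling, and Nfe2l1 was -0.012 without both samples numbered 1. In RV without both samples numbered 1, Sesn2 was -0.016 and Eif2ak1 -0.0039. With single samples left out, LV values ran from -0.17 to 0.0098 for Trib3, -0.040 to 0.31 for Ddit3, -0.00040 to 0.10 for Sesn2, -0.17 to 0.12 for Eif2ak1, -0.15 to 0.29 for Nfe2l1 and -0.21 to 0.062 for Sars, and RV values from -0.024 to 0.060 for Sesn2, -0.0039 to 0.18 for Eif2ak1, -0.21 to 0.29 for Nfe2l1 and -0.10 to 0.19 for Sars. For RV against LV in WT-PLN hearts, quantile normalization gave 0.12 for Trib3 and 0.024 for Sesn2, upper quartile scaling 0.093 and 0.0080, removal of mitochondrially encoded genes 0.079 for Trib3, and removal of both samples numbered 1 -0.0058 for Asns, with single samples left out -0.12 to 0.12 for Trib3 and -0.0069 to 0.099 for Asns. In R14del-PLN hearts, Asns was 0.0058 after upper quartile scaling and 0.049 without mitochondrially encoded genes, Slc3a2 was 0.049 without them, and with single samples left out Ppp1r15a ran from -0.29 to 0.016, Trib3 from -0.30 to 0.042 and Asns from -0.25 to 0.041. For the interaction, quantile normalization gave -0.067 for Atf5 and -0.0049 for Ddit3, upper quartile scaling -0.0017 for Atf4, -0.065 for Atf5 and -0.0010 for Ddit3, and single samples left out -0.073 to 0.29 for Atf4, -0.055 to 0.18 for Atf5, -0.069 to 0.29 for Ddit3, -0.079 to 0.32 for Ppp1r15a, -0.29 to 0.055 for Trib3 and -0.086 to 0.025 for Sesn2. The cause of these shifts was not tested.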
